A study of Mus musculus with 16 samples.

Results

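The genes for 5 transcription factors of the endothelial-to-mesenchymal transition (EndMT), *Snai1*, *Snai2*, *Twist1*, *Zeb1* and *Zeb2*, were followed through the RNA sequencing of mouse lung endothelial cells (MLECs). They were taken by gene symbol from the deposited table, in which all 5 were found once each among 55414 genes, and all 5 had enough counts to be tested. MLECs came from 4 isolations of *Rosa26-CreERT2;Eng* fl/fl mice that also carried the Immorto transgene, so both genotypes were floxed at *Eng*, conditionally immortalised, and had a tamoxifen-inducible Cre under a promoter that is active in most cell types. Ctrl cells (labelled WT) had received vehicle, and KO cells had received 4-OH-tamoxifen to delete *Eng*, the gene of the BMP9 co-receptor endoglin. After serum starvation, Ctrl cells were given PBS or sENG(M):BMP9, in which BMP9 is held by the monomeric soluble form of endoglin. This soluble endoglin was added in large excess, to keep the complex together. KO cells were given PBS or pro:BMP9, in which BMP9 is held by its own prodomain. Either ligand stayed on the cells for 90 min at 0.2 ng/ml, counted as growth factor domain, which gave 4 groups of 4 libraries, 1 per isolation, and 16 libraries in all. Age and sex of the mice are not given in the sources used here. Genotype, exposure to 4-OH-tamoxifen and, after ligand, the form of BMP9 and the excess of soluble endoglin change together and cannot be told apart. Within Ctrl cells, BMP9 and the excess of soluble endoglin also came together.

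In EndMT, endothelial cells loosen their junctions and take up features of mesenchymal cells, a step that is best known from the forming heart valves and that is also studied in fibrosis and pulmonary vascular disease. SNAI1 (Snail) and SNAI2 (Slug) are zinc finger repressors that bind E-boxes, short DNA elements in the promoters of junction genes such as the cadherins. ZEB1 and ZEB2 carry zinc finger clusters at both ends of the protein and bind the same kind of element, and TWIST1 is a basic helix-loop-helix (bHLH) factor that acts as a dimer, often with an E protein. TGF-β and BMP receptors act on these genes through SMAD proteins, and MLECs were maintained with SB431542, an inhibitor of the TGF-β type I receptor, which was left out of the medium before the cells were starved and treated.

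*Snai1* (ENSMUSG00000042821) lies on the plus strand of chromosome 2 from 167380115 to 167384734 in GRCm39, and its canonical transcript has 3 exons. *Twist1* (ENSMUSG00000035799) lies on the plus strand of chromosome 12 from 34007670 to 34009828 and has 2 exons. *Snai2* (ENSMUSG00000022676) lies on chromosome 16 from 14523716 to 14527249 and has 3 exons. *Zeb2* (ENSMUSG00000026872) lies on the minus strand of chromosome 2 from 44873644 to 45007407. The canonical transcripts of *Zeb1* and *Zeb2* have 8 and 9 exons. An antisense transcript overlaps each *Zeb* gene, and another, *Gm75792*, which was not used here, overlaps *Snai1*. *Zeb2os* had between 6 and 27 counts and *Zeb1os1* between 30 and 56 counts in the 16 libraries, against at least 1060 for *Zeb2* and 2808 for *Zeb1*. On the same strand, the long non-coding RNA genes *Gm58463* and *Gm74590* overlap *Zeb1* by 26641 bases and *Zeb2* by 363 bases. No counts were given for either, so their part in the *Zeb1* and *Zeb2* counts was not tested. The libraries were stranded, but whether strand was used in counting is not given in the sources used here.

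The promoters of *Snai1*, the member with the largest response to ligand, and of *Twist1*, a member with none detected, are shown side by side. Each window runs from 250 bases before to 50 bases after the transcription start of the RefSeq gene, in the direction of the gene. The windows were taken from a RefSeq table of GRCm38.p6, and each matched GRCm39 at 1 place, chr2:167379865-167380164 for *Snai1* and chr12:34007420-34007719 for *Twist1*, both on the plus strand. Capitals mark matches, on either strand, to CACCTG (an E-box of the kind that Snail and ZEB factors bind), to CAGAC (the short SMAD element) or to GGCGCC (a GC-rich element that BMP SMADs bind). CACCTG is a special case of the general E-box CANNTG.
Snai1: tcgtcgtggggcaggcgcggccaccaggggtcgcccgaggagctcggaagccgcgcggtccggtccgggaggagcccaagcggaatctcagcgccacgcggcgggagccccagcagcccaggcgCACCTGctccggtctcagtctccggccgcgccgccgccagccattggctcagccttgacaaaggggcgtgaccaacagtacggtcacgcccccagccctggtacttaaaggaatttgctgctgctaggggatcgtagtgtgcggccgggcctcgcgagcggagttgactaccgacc
Twist1: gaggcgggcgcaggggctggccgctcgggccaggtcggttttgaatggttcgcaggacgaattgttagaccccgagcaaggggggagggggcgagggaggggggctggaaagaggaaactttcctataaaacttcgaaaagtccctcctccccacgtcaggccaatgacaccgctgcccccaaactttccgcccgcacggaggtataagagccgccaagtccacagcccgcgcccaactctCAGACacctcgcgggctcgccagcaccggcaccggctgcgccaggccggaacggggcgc

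The *Snai1* window held 1 CACCTG match, which starts 126 bases before the transcription start, and no match to CAGAC or GGCGCC. The *Twist1* window held 1 CAGAC match, which starts 9 bases before the transcription start, and no E-box. Among 32851 promoter windows of the same length in the table, CACCTG was present in 20.2%, CAGAC in 49.6%, GGCGCC in 11.9% and CANNTG in 72.3%, so none of these matches is rare. Bases G and C made up 70% of the *Snai1* window and 66% of the *Twist1* window, against a median of 52.7% over all windows. *Zeb2* had 4 windows in the table, with none of the 4 motifs in any of them. The table matched 3 of the 5 genes and did not list *Snai2* or *Zeb1*. A match, or none, in these letters describes the window only.

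The deposited values are raw read counts per gene, between 14869115 and 17242117 per library. *Eng* had a mean of 460 ± 93.6 CPM (counts scaled to a common library size with TMM, which allows for differences in RNA composition) in PBS-treated Ctrl cells and of 51.2 ± 8.37 CPM in PBS-treated KO cells (SD, n = 4), and every KO library was below every Ctrl library. A list of 12 endothelial markers without *Eng* summed to between 3595 and 7882 CPM, with none at 0 in any library, and *Cdh5* (VE-cadherin) alone was at 1449 CPM or more. Markers of other cells were present at lower levels, with 8 fibroblast genes summing to between 213 and 819 CPM and 8 mural genes to between 35.1 and 264 CPM. The epithelial (5 genes) and leukocyte (5 genes) lists reached at most 180 and 43.1 CPM, mostly from *Krt18* and *Cd68*. Within these lists, *Sftpc* had no count, and *Epcam* and *Ptprc* had at most 4 and 5 counts in any library. Others were higher, with up to 756 counts for *Krt8*, 62 for *Cdh1* and 92 for *Csf1r*. The summed endothelial markers were lowest in isolation 3 (3595 to 3890 CPM) and highest in isolation 2 (7788 to 7882 CPM). In bulk RNA, fewer cells of a type and less RNA per cell cannot be told apart.

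The first question was whether the ligand, here BMP9 with an excess of soluble endoglin, moved the EndMT factors in Ctrl cells. The test was edgeR's quasi-likelihood test in 1 fit over all 16 libraries, with the isolation as a block and with Benjamini-Hochberg adjustment over the 15693 tested genes. After sENG(M):BMP9, *Snai1* and *Snai2* rose, *Zeb2* fell, and neither *Twist1* nor *Zeb1* passed an adjusted p under 0.05. These 3 of 5 members stand beside 9.69% of all tested genes called in this comparison, 5.86% higher and 3.83% lower. The size of the 3 changes differed widely, from over 4-fold for *Snai1* to 0.862-fold for *Zeb2*.

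Reads of *Snai1* in Ctrl cells numbered 294, 281, 346 and 213 with PBS, isolations 1 to 4 in turn, and 1315, 1356, 1660 and 1027 after sENG(M):BMP9. In CPM these were 19.1, 18.5, 20.8 and 12.9 before ligand, and 78.1, 90.8, 96.5 and 59.3 after it. The groups did not overlap, which held in this direction for 2.51% of all tested genes. Single isolations rose 4.07-, 4.89-, 4.63- and 4.58-fold. The log2 fold change was 2.19 (standard error 0.0764, 95% interval 2.03 to 2.35, adjusted p = 5.10e-13). By p-value *Snai1* was in place 7 of the 15693 genes, and by log2 fold change it was the 26th from the top. Its level was lowest in isolation 4 both before and after ligand, while its fold of 4.58 lay within the range of the other 3.

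Across isolations 1 to 4, *Snai2* was at 12.02, 11.9, 18.4 and 23.6 CPM in Ctrl cells with PBS and 20.0, 20.2, 19.3 and 26.0 CPM after sENG(M):BMP9. It was higher after ligand in 4 of 4 isolations, but the groups overlapped. The increases in isolations 1 and 2, where *Snai2* was low before ligand, were 1.66- and 1.69-fold, and those in isolations 3 and 4 were 1.05- and 1.10-fold. Its log2 fold change was 0.40 (standard error 0.102, 95% interval 0.18 to 0.61, adjusted p = 0.0150). The call was lost without isolation 1 (log2 fold change 0.30, adjusted p = 0.159), without isolation 2 (0.29, adjusted p = 0.168) and without the replicate block (0.38, adjusted p = 1.00).

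*Zeb2* had 97.4, 85.1, 106 and 94.9 CPM in the PBS-treated Ctrl cells and 81.9, 71.0, 90.5 and 87.0 CPM after sENG(M):BMP9. The decrease was seen in 4 of 4 isolations, while the ranges of the groups overlapped. Its log2 fold change was -0.21 (standard error 0.0536, 95% interval -0.33 to -0.10, adjusted p = 0.0126). This call was also lost without isolation 1 (adjusted p = 0.0937), without isolation 2 (adjusted p = 0.0730) and without the replicate block (adjusted p = 0.537).

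*Twist1* had 26.2, 24.1, 25.7 and 22.5 CPM before and 24.1, 26.0, 24.5 and 24.1 CPM after sENG(M):BMP9, and was higher in 2 of 4 isolations. Its log2 fold change was 0.00, with a 95% interval of -0.15 to 0.16 (adjusted p = 0.989). *Zeb1* (ENSMUSG00000024238, plus strand of chromosome 18, 5591860 to 5775467), the member with the most counts, had 222, 220, 202 and 215 CPM before and 217, 219, 191 and 222 CPM after ligand. Its log2 fold change was -0.02, with a 95% interval of -0.09 to 0.06 (adjusted p = 0.891). The interval for *Zeb1* leaves room for a change of at most 0.937-fold to 1.04-fold.

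The same question was put to KO cells, in which *Eng* transcripts were reduced but still present, at 51.2 CPM with PBS and 120.5 CPM after pro:BMP9, against 641 CPM in the Ctrl cells that received sENG(M):BMP9 (means, n = 4). These are RNA counts over the whole gene and do not measure the protein. The paper checked the loss of endoglin by staining, immunoblot and qPCR. After pro:BMP9, *Snai1* and *Snai2* again rose, and the other 3 members did not pass the threshold. These 2 of 5 stand beside 5.59% of all tested genes, 3.68% higher and 1.92% lower. Reads of *Snai1* in KO cells numbered 347, 245, 396 and 248 with PBS and 1087, 1344, 1438 and 886 after pro:BMP9. In CPM the values were 22.0, 16.03, 23.8 and 14.6 before, and 75, 84.6, 93.3 and 58.0 after ligand, with no overlap (1.82% of all tested genes had no overlap in this direction). Single isolations rose 3.39-, 5.25-, 3.904- and 3.94-fold. The log2 fold change was 2.02 (standard error 0.0760, 95% interval 1.86 to 2.18, adjusted p = 2.16e-12), in place 6 by p-value and again the 26th from the top by size.

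*Snai2* in KO cells had 14.9, 14.1, 19.2 and 21.4 CPM before and 21.7, 20.5, 22.1 and 30.7 CPM after pro:BMP9. It was higher in 4 of 4 isolations, least so in isolation 3 (1.15-fold, against 1.43- to 1.45-fold in the other 3), and the groups overlapped. The log2 fold change was 0.45 (standard error 0.101, 95% interval 0.24 to 0.66, adjusted p = 0.00835). The call was lost without isolation 2 (0.42, adjusted p = 0.0533), without isolation 4 (0.42, adjusted p = 0.0577) and without the replicate block (0.45, adjusted p = 1.00).

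*Zeb2* in KO cells had 97.2, 87.8, 91.1 and 85.7 CPM before and 85.4, 76.2, 79.2 and 83.4 CPM after pro:BMP9. All 4 treated libraries were below all 4 PBS-treated ones, which held in this direction for 0.848% of all tested genes, but the log2 fold change of -0.16 (standard error 0.0540, 95% interval -0.27 to -0.05) did not pass the threshold (adjusted p = 0.118). It passed in a fit of the 8 KO libraries alone (adjusted p = 0.0259). It also passed under the steps that the study's methods name, DESeq2 after quantile normalisation and ComBat, with settings chosen here (adjusted p = 0.00482). *Twist1* had 26.8, 26.6, 32.9 and 24.4 CPM before and 22.7, 27.1, 28.5 and 22.9 CPM after pro:BMP9, with a log2 fold change of -0.13 (95% interval -0.28 to 0.03, adjusted p = 0.498). *Zeb1* had 233, 215, 194 and 212 CPM before and 225, 221, 182 and 208 CPM after ligand, with one of -0.03 (95% interval -0.11 to 0.05, adjusted p = 0.837).

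**Figure D1:**
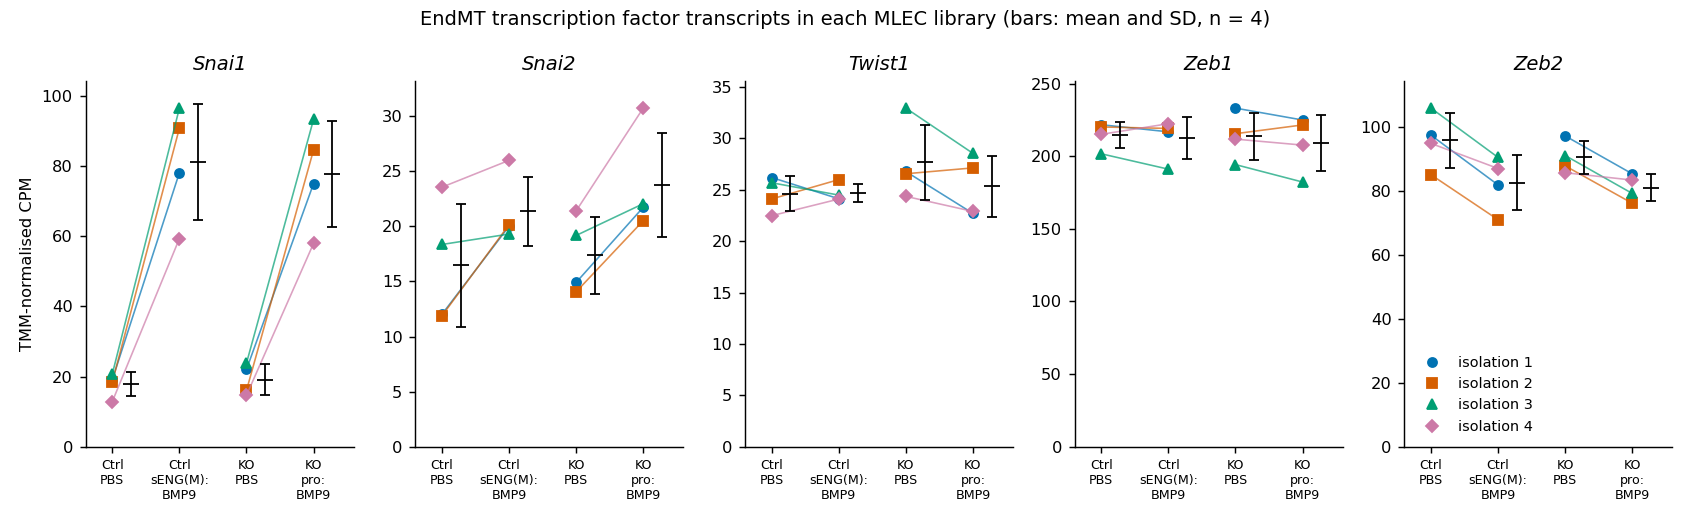
TMM-normalised CPM of the 5 genes (vertical axes, from 0) in the 4 groups; each symbol is 1 library, lines join libraries of 1 isolation, and black bars give the mean and SD (n = 4). *Snai1* moves from between 12.9 and 23.8 CPM in PBS to between 58.0 and 96.5 CPM with ligand, the PBS and ligand groups overlap for *Snai2* in both genotypes and for *Zeb2* in Ctrl but not in KO cells, and the groups of *Twist1* and of *Zeb1* overlap.

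The next comparisons set KO against Ctrl cells, which differed in exposure to 4-OH-tamoxifen as well as in *Eng*. With ligand, the form of BMP9 and the excess of soluble endoglin differed too. A dependence on endoglin alone therefore cannot be read from them. In PBS, none of the 5 passed the threshold between KO and Ctrl cells, in a comparison that called 0.0191% of all tested genes in either direction. The log2 fold changes (KO against Ctrl) were 0.11 for *Snai1* (95% interval -0.07 to 0.29, adjusted p = 0.872), 0.09 for *Snai2* (-0.12 to 0.31, adjusted p = 0.921) and -0.01 for *Zeb1* (-0.09 to 0.07, adjusted p = 0.987). *Zeb2* had one of -0.08 (-0.19 to 0.03, adjusted p = 0.832). *Twist1* was higher in KO cells in 4 of 4 isolations, with a mean of 27.7 ± 3.69 CPM against 24.6 ± 1.68 CPM (SD, n = 4), but its log2 fold change of 0.17 (95% interval 0.01 to 0.32) did not pass after adjustment (adjusted p = 0.693).

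With ligand on both sides, none of the 5 members passed either, beside 0.255% of all tested genes (0.166% lower in KO cells). *Snai1* was lower in KO cells in 4 of 4 isolations, but only to between 0.931 and 0.977 of the Ctrl level of the same isolation, with a log2 fold change of -0.06 (95% interval -0.20 to 0.08, adjusted p = 0.865). *Snai2* was higher in KO cells in 4 of 4 isolations, with a log2 fold change of 0.15 (-0.06 to 0.35, adjusted p = 0.733). *Twist1* (0.03, adjusted p = 0.946), *Zeb1* (-0.02, adjusted p = 0.913) and *Zeb2* (-0.03, adjusted p = 0.947) were each higher in 2 isolations and lower in the other 2.

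Whether the ligand response itself differed between KO and Ctrl cells was tested in the same fit, which called no gene, 0% of all tested, although 565 genes had an unadjusted p under 0.05. DESeq2 with the replicate block also called 0, and the steps of the study's methods, with settings chosen here, called 14, none of them a member. For *Snai1* the difference was -0.17 on the log2 scale (standard error 0.109, 95% interval -0.40 to 0.06, adjusted p = 1.00). The fold rise of *Snai1* in KO cells was thus 0.890 times that in Ctrl cells, with an interval of 0.760 to 1.04, and it was the weaker one in isolations 1, 3 and 4 and the stronger one in isolation 2. For *Snai2* the difference was 0.05 (-0.25 to 0.35), with isolations 1 and 2 on one side and 3 and 4 on the other. For *Zeb2* it was 0.06 (-0.10 to 0.22), for *Zeb1* -0.02 (-0.13 to 0.09) and for *Twist1* -0.13 (-0.35 to 0.09). The difference was above 0 for *Zeb2* and below 0 for *Twist1* in 4 of 4 isolations. These misses do not show equal responses, since the interval for *Snai1* reaches down to 0.760 times the Ctrl fold.

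**Figure D2:**
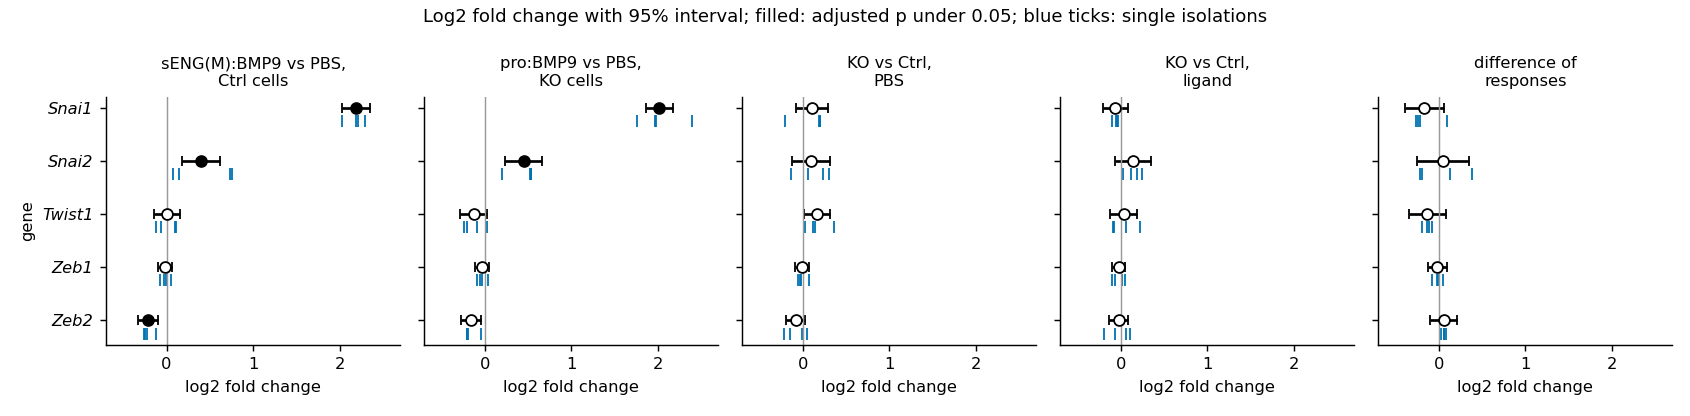
Log2 fold changes (horizontal axes) of the 5 genes in the 5 comparisons, with 95% intervals; filled circles passed an adjusted p under 0.05, and blue ticks are the 4 single isolations. *Snai1* is near 2 in both ligand comparisons (2.19 and 2.02), *Snai2* is at 0.40 and 0.45, and in the 3 comparisons of genotype no gene is filled.

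Levels of different genes were compared per length, as RPKM (TMM-normalised CPM divided by the deposited gene length in kilobases). In PBS-treated Ctrl cells the order from the highest was *Zeb1* (20.9 ± 0.887 RPKM), *Twist1* (15.1 ± 1.03), *Snai1* (11.0 ± 2.11), *Snai2* (8.14 ± 2.78) and *Zeb2* (4.74 ± 0.425; SD, n = 4). *Snai1* and *Snai2* overlapped in this order and changed places in isolation 4, whereas *Zeb1* was above *Twist1* in all 4 libraries, and *Zeb2* was last in all of them. PBS-treated KO cells had the same order of means, with *Twist1* at 16.99 ± 2.27 and *Zeb1* at 20.8 ± 1.55 RPKM, but these 2 overlapped, and *Twist1* was the higher one in isolation 3.

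With ligand, *Snai1* was the highest of the 5 in all 8 libraries. It reached 50.1 ± 10.2 RPKM in Ctrl cells and 47.9 ± 9.34 RPKM in KO cells, between 1.69 and 3.24 times the RPKM of *Zeb1* in the same library. *Zeb1* came second in all 8 libraries, *Zeb2* was again last at 4.09 ± 0.421 RPKM in Ctrl cells and 4.01 ± 0.205 RPKM in KO cells, and *Twist1* was above *Snai2* except in isolation 4 of the KO cells. *Snai1* held 18.3% ± 3.26 of the summed RPKM of the 5 genes in PBS-treated Ctrl cells and 49.4% ± 6.46 after sENG(M):BMP9, and 18.7% ± 3.12 and 47.8% ± 5.71 in the KO cells. The sum itself rose from 59.9 ± 2.05 to 101 ± 8.09 RPKM in Ctrl cells and from 62.7 ± 4.46 to 99.6 ± 8.13 RPKM in KO cells. The RPKM of *Zeb2* rests on a deposited length of 20203 bases, the longest of the 5.

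**Figure D3:**
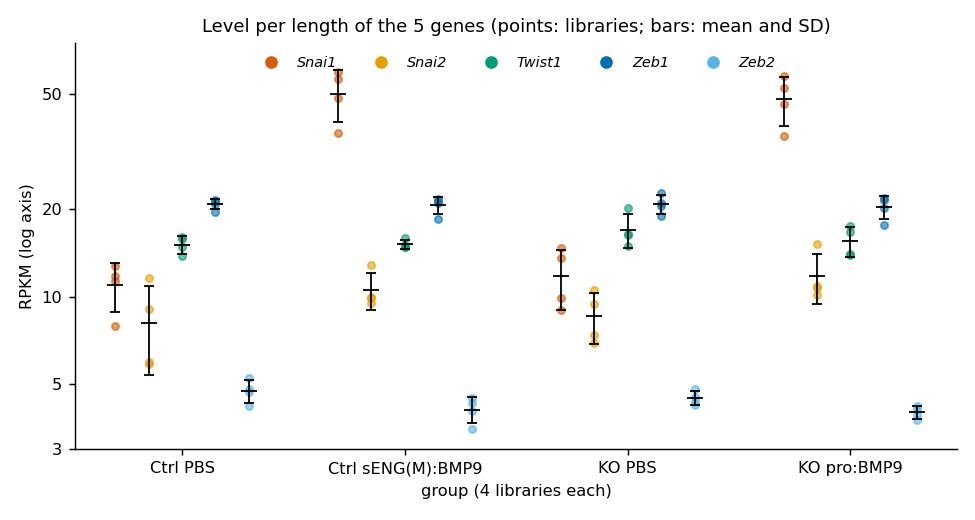
Level per length of the 5 genes (RPKM, log axis) in each group; points are libraries, and bars are the mean and SD (n = 4). *Snai1* lies between 7.94 and 14.7 RPKM in PBS, below *Zeb1* and *Twist1*, and between 35.8 and 59.5 RPKM with ligand, above the other 4 genes.

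Isolations differed in these genes as well. *Snai1* was lowest in isolation 4 in 4 of 4 groups and highest in isolation 3 in 4 of 4 groups, with a ratio of highest to lowest CPM between 1.61 and 1.63 in each group. *Snai2* was highest in isolation 4 in 4 of 4 groups. *Zeb1* was lowest in isolation 3 in 4 of 4 groups, at 182 to 202 CPM. The summed endothelial markers were also lowest in isolation 3. Summed fibroblast markers were at 667 to 819 CPM there, 636 to 737 CPM in isolation 1, 402 to 644 CPM in isolation 4 and 213 to 229 CPM in isolation 2. Single fibroblast genes differed, with *Thy1* highest in isolation 2 (mean 116 CPM) and *Dcn* highest in isolation 4 (mean 147 CPM). The part of these markers in the levels of *Snai1* and *Zeb1* was not tested.

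The genes whose level moved most like *Snai1* were found by Pearson's r of log2 CPM over the 16 libraries, as a description. As measured they were *Kctd10* (r = 0.983), *Smad7* (0.973) and *Gadd45g* (0.969). After each isolation's mean was subtracted, they were *Smad6* (r = 0.995), *Smad7* (0.995) and *Id1* (0.992), of which *Smad6* and *Smad7* encode inhibitory SMADs and *Id1* a bHLH inhibitor, all known to be induced by BMP. The libraries come from 4 isolations and 4 groups, so high values are common in such a ranking. On the same scale, *Snai1* had an r of 0.833 with *Snai2*, -0.822 with *Zeb2*, -0.242 with *Twist1* and -0.302 with *Zeb1*. The closest genes to *Snai2* were *Podxl* (0.955), *Calhm2* (0.953) and *Urgcp* (0.9498), and the closest to *Zeb2* were *Tob1* (0.945), *Zbtb21* (0.924) and *Kdm2a* (0.922). For *Twist1* (*Metrn*, 0.918) and *Zeb1* (*Tollip*, 0.896), the closest gene had a lower r.

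Relatives of the members were scarce in these cells. Of 8 related genes, 3 had enough counts to be tested, *Snai3*, *Twist2* and *Hand2*, and none of them passed the threshold in any comparison. *Snai3* had between 0 and 46 counts and *Twist2* between 12 and 115, with the highest counts of both in isolation 3. The fibroblast bHLH gene *Tcf21* had at most 1 count in any library.

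*Snai1* was not the only EMT-related regulator that moved. In a list of 20 other transcription factors linked to EMT, 16 were tested, and in Ctrl cells 3 rose and 1 fell after sENG(M):BMP9, with a median log2 fold change of 0.03, near that of all tested genes (-0.01). Over all tested genes, 9.69% were called in Ctrl and 5.59% in KO cells. The forkhead genes *Foxc2* (log2 fold change 3.19, adjusted p = 1.19e-13), *Foxc1* (0.92, adjusted p = 3.15e-08) and *Foxf1* (0.61, adjusted p = 4.75e-07), known from vascular and mesenchymal development, rose. *Sox4*, an HMG-box factor that TGF-β is known to induce in epithelial cells, fell by 0.41 on the log2 scale (adjusted p = 3.19e-05). The same 4 genes passed in the same directions after pro:BMP9 in KO cells, where *Foxc2* had a log2 fold change of 2.77 (adjusted p = 1.94e-12). Without the replicate block 2 of the 16 passed in each genotype. With ligand, *Foxc2* was also lower in KO than in Ctrl cells (log2 fold change -0.42, adjusted p = 0.0306), the only one of the 16 to pass there, and not without the replicate block.

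Among 7 genes for dimer partners of TWIST1 and their inhibitors, all tested, the 4 *Id* genes rose in both genotypes and the 3 E protein genes passed in neither. Shares called over all tested genes were 9.69% in Ctrl and 5.59% in KO cells. ID proteins lack a DNA-binding region and sequester E proteins. *Id2* went from 17.4 ± 4.2 to 108 ± 23.9 CPM in Ctrl cells (SD, n = 4), a change of 2.64 on the log2 scale (adjusted p = 4.52e-09), and that in KO cells was 2.59 (adjusted p = 1.18e-08). *Id1*, *Id3* and *Id4* had log2 fold changes of 2.51, 1.58 and 1.90 in Ctrl cells. The E protein genes *Tcf3*, *Tcf4* and *Tcf12* had ones between -0.06 and 0.06 in Ctrl cells, beside 0.00 for *Twist1*.

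Of 22 genes for co-repressors of these factors and for enzymes that act on the turnover of Snail proteins, 5 rose and 1 fell in Ctrl cells, and 4 rose and 1 fell in KO cells. They stand beside 9.69% of all tested genes called in Ctrl and 5.59% in KO cells. *Fbxl14*, a ubiquitin ligase subunit that targets Snail proteins, rose by a log2 fold change of 0.27 (adjusted p = 8.41e-04) in Ctrl cells and of 0.23 (adjusted p = 0.00678) in KO cells. *Csnk1a1*, the kinase casein kinase 1 alpha, rose by 0.17 in Ctrl cells (adjusted p = 5.06e-04). Co-repressor genes *Ctbp2* (0.20, adjusted p = 0.00110) and *Ajuba* (0.32, adjusted p = 0.00171) rose in Ctrl cells, as did the cohesin loader *Nipbl* (0.27, adjusted p = 0.00621). *Limd1*, from the same LIM domain family as *Ajuba*, fell by 0.31 on the log2 scale (adjusted p = 9.65e-05). In Ctrl cells the 6 changes lay between 0.805- and 1.25-fold, and without the replicate block none of the 22 genes passed in either genotype.

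Genes that the EndMT factors are known to repress or raise were tested at the same 90 min. Of 13 endothelial and junction genes, 2 rose in Ctrl cells and none fell, beside 9.69% of all tested genes called. These were *Kdr*, the VEGF receptor gene (log2 fold change 0.92, adjusted p = 1.03e-04), and *Pecam1* (0.11, adjusted p = 0.0314), and in KO cells *Kdr* alone passed (0.76, adjusted p = 0.00119). Without the replicate block none of the 13, *Kdr* included, passed in either genotype. *Cdh5*, a junction cadherin, had a log2 fold change of 0.05 in Ctrl cells (95% interval -0.01 to 0.12, adjusted p = 0.412) and of 0.02 in KO cells (-0.04 to 0.09, adjusted p = 0.867). Of 20 mesenchymal genes, 2 rose in each genotype and none fell, beside 9.69% of all tested genes called in Ctrl and 5.59% in KO cells, so that the count in Ctrl cells is near the background. *Itga5*, a fibronectin receptor subunit, was among them in both, with log2 fold changes of 0.33 in Ctrl and 0.25 in KO cells (adjusted p = 7.96e-06 and 3.06e-04). The median log2 fold change of the mesenchymal list was 0.03 in Ctrl and 0.02 in KO cells. *Vim* (vimentin) had log2 fold changes of -0.02 and -0.06 and *Cdh2* (N-cadherin) of 0.02 and 0.01, none of them called. *Acta2*, smooth muscle actin, had 4.93 to 163 CPM in Ctrl cells with PBS, and its log2 fold change of 0.14 in Ctrl cells had a wide 95% interval (-0.34 to 0.62, adjusted p = 0.836).

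Between genotypes, 1 of the 20 mesenchymal genes passed, *Col3a1*, lower in KO cells both in PBS (log2 fold change -0.46, adjusted p = 0.0285) and with ligand (-0.47, adjusted p = 0.00894). Over all tested genes, 0.0191% were called between genotypes in PBS and 0.255% with ligand. Ligand against PBS called 9.69% in Ctrl and 5.59% in KO cells. The summed mural markers ran from 38.2 to 259 CPM in Ctrl and from 37.3 to 167 CPM in KO cells in PBS, and the summed fibroblast markers from 224 to 819 and from 220 to 693 CPM. Of 7 tested fibroblast markers 2 passed, *Col3a1* and *Dcn* (decorin, log2 fold change -0.61 in PBS and -0.61 with ligand), and of 8 mural markers *Pdgfrb* alone passed, with ligand (-0.29). Of 13 endothelial markers, 3 rose with ligand in Ctrl (*Eng*, *Kdr* and *Pecam1*) and 2 in KO cells (*Eng* and *Kdr*), against 0 and 1 without the replicate block, and 1, *Eng*, was lower in KO cells. With ligand, *Eng* itself had a log2 fold change of 0.48 in Ctrl (adjusted p = 0.00163) and of 1.23 in KO cells (adjusted p = 2.80e-07). No tested epithelial (3) or leukocyte (2) marker passed in any comparison. None of the 5 EndMT factors passed between genotypes, and the part of these markers in their values was not tested. Without the replicate block neither *Col3a1* nor any fibroblast marker passed.

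After ligand, 9.69% of all tested genes were called in Ctrl and 5.59% in KO cells. A list of 23 BMP, TGF-β and Notch pathway genes held signals and receptors, but also SMAD genes and the target genes *Hes1*, *Hey1* and *Hey2*. Of these 23, 11 rose in Ctrl and 8 in KO cells after ligand, and none fell. Those with the smallest p in Ctrl cells were the Notch and BMP target *Hey1* (log2 fold change 3.55, adjusted p = 3.65e-12), *Bmp4* (0.95, adjusted p = 4.00e-11), the receptor *Bmpr2* (0.64, adjusted p = 5.26e-07), *Hes1* (0.93, adjusted p = 2.55e-06) and *Smad9* (2.05, adjusted p = 9.17e-06). *Hey1* (log2 fold change -0.73) and *Bmp4* (-0.29) were, with ligand, lower in KO than in Ctrl cells (adjusted p = 0.00835 for both, neither without the replicate block), whereas *Snai1*, with -0.06, was not called. Whether *Snai1* differs from *Hey1* in this respect was not tested.

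**Figure D4:**
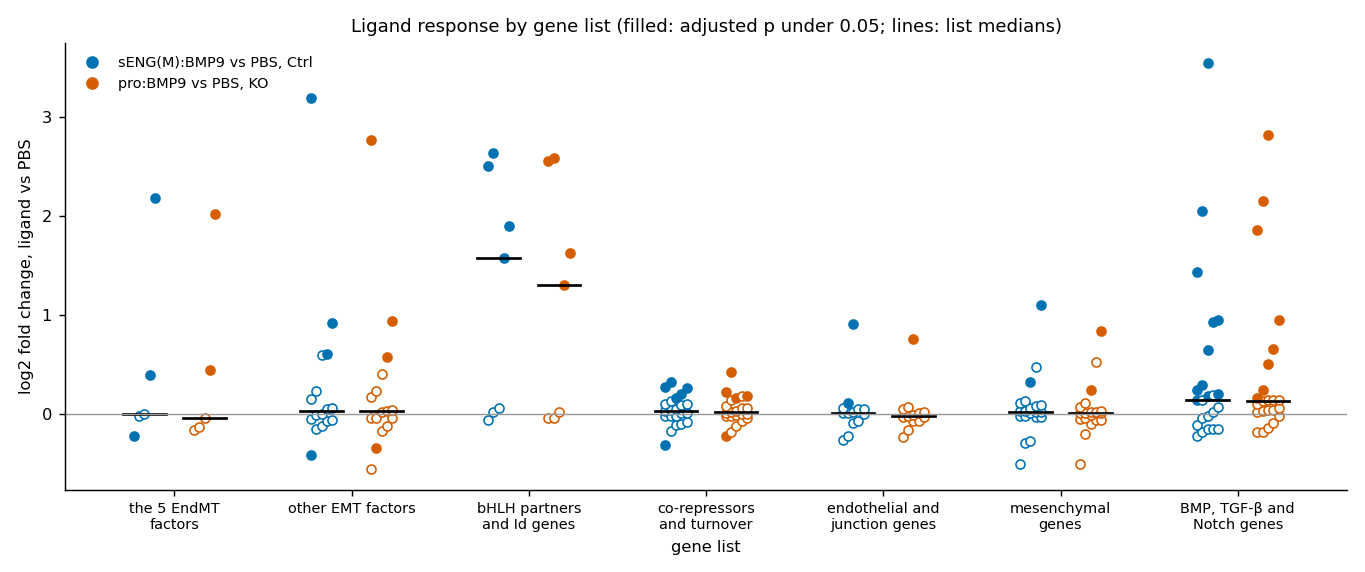
Log2 fold change with ligand against PBS (vertical axis) for the 5 EndMT factors and 6 gene lists; each circle is 1 tested gene, blue for Ctrl and orange for KO cells, filled where the adjusted p was under 0.05, and black lines are medians. The *Id* genes and single genes such as *Foxc2* (3.19 in Ctrl cells) lie beside *Snai1* (2.19), while the medians of the mesenchymal list (0.03 and 0.02) and of the junction list stay near 0.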

How the data were processed

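RNA was sequenced from 16 libraries of MLECs. The authors deposited raw read counts per gene, without normalisation. Per the labels and the study's methods, stranded poly-A libraries were read as paired ends. The submitters' processing notes name GRCm39, HISAT2 2.0.5, featureCounts 1.5.0-p3 and DESeq2 1.26.0. The annotation release and strand setting of the counting are not given in the sources used here. The deposited gene length in bases, an annotation value, was used only for RPKM, and exons and overlapping genes were taken from a GENCODE annotation of GRCm39.

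The test of counts was that of edgeR 4.0.16 (R 4.3.3). edgeR's filter by group (minimum count 10, total 15) left 15693 genes, which were normalised by TMM and fitted by a quasi-likelihood model to all 16 libraries with the isolation as a block. Adjusted p under 0.05 was the threshold, and intervals are 95% from the model. Values of single isolations are log2 CPM with a prior count of 2. Replicate numbers follow the names of the isolations. After subtraction of group means, libraries that shared a number correlated across genes at 0.670 to 0.805 (24 pairs), so they were treated as paired. Other pairs (72) had correlations between -0.719 and 0.324, with a mean of -0.251. That mean is no separate evidence, since the subtraction largely ties it to the mean of the pairs that share a number. No 2 libraries of a group agreed within sampling noise (chi-square per degree of freedom at least 10.9). Totals of 14869115 to 17242117 counts set the precision, and counts cover counting error only.

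The 5 genes and the gene lists were chosen with earlier results of these data known. All members are named; from the lists, genes that passed were named, at most 6 per list and comparison by smallest p, others by value beside a member. The values of 1 gene that passed are not reported here. The 3 genes most like a member are those with the highest r. Alternative settings were no block, DESeq2 1.42.0, RLE size factors, no filter, at least 10 counts in every library, only the 8 libraries compared, the study's steps (DESeq2 after quantile normalisation and removal of the isolation by ComBat, sva 3.50.0), and leaving out each isolation. For the study's steps, settings that its methods do not give were chosen here. The edgeR procedure was tested on simulated data that held no differences between isolations, so the effect of the block was not checked.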

Additional observations from a re-analysis of the deposited data

Results flagged for a closer look

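*Snai2* in isolation 4 stood apart from the other 3 isolations in both ligand-treated groups. After sENG(M):BMP9 it reached 26.0 CPM in Ctrl cells, where the others lay between 19.3 and 20.2 CPM, and at 30.7 CPM in KO cells after pro:BMP9, where the others lay between 20.5 and 22.1 CPM. Each gap to the nearest library, divided by the range of the 4 libraries, was above Dixon's 95% critical value for 4 samples. All 20 combinations of member and group were examined, and chance alone exceeds that value in about 1 of 20. *Snai2* was also highest in isolation 4 in both PBS-treated groups, at 23.6 CPM in Ctrl and 21.4 CPM in KO cells. Without isolation 4, *Snai2* had a log2 fold change with ligand of 0.50 in Ctrl and 0.42 in KO cells.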

How the results depend on the processing

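*Snai1* passed under all 11 alternatives in both genotypes, and leaving out single isolations gave log2 fold changes of 2.15 to 2.24 in Ctrl and 1.90 to 2.11 in KO cells. Over 25 member results, 250 of 270 alternative values kept direction and call, and 9 reversed, all of them uncalled changes with 1 isolation left out. Without the replicate block, *Snai2* did not pass in Ctrl (0.38, adjusted p = 1.00) or KO cells (0.45, adjusted p = 1.00), nor did *Zeb2* in Ctrl cells (-0.21, adjusted p = 0.537), and the block changed no other call of a member. *Zeb2* in KO cells passed with only the 8 libraries compared (-0.16) and with the study's steps (-0.17). The cause was not tested.

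Leaving out single isolations moved *Snai2* from 0.29 to 0.51 in Ctrl and from 0.42 to 0.54 in KO cells, each called in 2 of 4 fits, and *Zeb2* in Ctrl cells from -0.25 to -0.20, called in 2 of 4. Signs turned in Ctrl cells with ligand for *Twist1* (-0.028 to 0.043) and *Zeb1* (-0.040 to 0.0036), between genotypes in PBS for *Zeb1* (-0.038 to 0.0073), and with ligand for *Twist1* (-0.030 to 0.071), *Zeb1* (-0.053 to 0.0012) and *Zeb2* (-0.069 to 0.030). In the difference of responses they turned for *Snai2* (-0.079 to 0.12) and *Zeb1* (-0.042 to 0.0050).

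Of all tested genes, 1521 were called with ligand in Ctrl cells (167 without the block) and 878 in KO cells (91 without the block, 1406 with the study's steps, 573 without isolation 2). Between genotypes in PBS the count was 3, and 1 without the block, 7 by DESeq2, 204 without a filter, 1 with 8 libraries, 176 with the study's steps, 1 without isolation 3 and 69 without isolation 4. With ligand it was 40, and 1 without the block, 141 by DESeq2, 517 without a filter, 542 with the study's steps and 6 to 175 with 1 isolation left out. The difference of responses, 0, became 52 without a filter and 14 with the study's steps. No fit of the difference was possible with 8 libraries. Without the block, calls with ligand in Ctrl and KO cells went from 4 and 4 to 2 and 2 for other EMT factors. Those for bHLH partners and *Id* genes went from 4 and 4 to 4 and 3. Co-repressor and turnover genes went from 6 and 5 calls to 0, and junction genes from 2 and 1 to 0. Mesenchymal genes went from 2 and 2 to 1 and 1. The list of signals, receptors, SMAD genes and target genes went from 11 and 8 to 3 and 3. Endothelial markers went from 3 and 2 to 0 and 1. Without a filter, the mesenchymal list had 5 calls between genotypes in PBS and 6 with ligand.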
